A study of Mus musculus with 18 samples.

Results

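The genes described here encode 9 core subunits of the Polycomb repressive complexes, Ezh1, Ezh2, Eed, Suz12, Bmi1, Ring1, Rnf2, Cbx2 and Cbx7. They were chosen by gene symbol, and each was read from the probe set (a group of short probes on the array for one transcript) with the highest mean over all arrays among those annotated to that gene alone. All 9 had such a probe set, out of 18194 genes that did, and 8 of them were bright enough to enter the test across 12720 genes. The exception was Cbx2. The cells were mouse G1E-ER4, an immature erythroid line that lacks its own Gata1 and instead carries a GATA1 protein joined to the oestrogen receptor's ligand-binding domain, which estradiol switches on. RNA was taken at 0, 3, 7, 14, 21 and 30 h in 20 nM estradiol, on 3 arrays per time and 18 arrays in all. All 6 groups shared the disrupted Gata1 gene and the fusion transgene, and the 0 h arrays stood for cells not yet exposed to estradiol. Arrays of untreated cells matched in time were not analysed here, so the effects of estradiol itself, of active GATA1 and of culture time cannot be told apart. The labels call the arrays of one time biological replicates without saying that they came from separate cultures, so the p-values measure the spread between these arrays, which may be partly technical.

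Polycomb complexes hold developmental genes silent by marking histones. In Polycomb repressive complex 2 (PRC2), EZH2 or its relative EZH1 methylates histone H3, EED binds the methylated tail and SUZ12 is the scaffold, while in Polycomb repressive complex 1 (PRC1) the RING1 or RNF2 ubiquitin ligase modifies histone H2A together with BMI1, and CBX proteins such as CBX2 and CBX7 read the methyl mark. EZH2 is typical of dividing cells and EZH1, a weaker methyltransferase, of resting and differentiated ones, and in human erythroid precursors a change from EZH2 to EZH1 has been described.

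Of the 26 probe sets annotated to these genes alone, Suz12 had 6, Rnf2 5, Ezh1 4, Cbx7 3, Eed, Bmi1 and Cbx2 2 each, and Ezh2 and Ring1 1 each. Levels are deposited log2 values, and a level of one gene cannot be set against that of another because probes differ in brightness. In bulk RNA, a lower value from fewer cells of a type and one from less RNA per cell cannot be told apart. The question here was which subunits changed as the cells matured, and whether the catalytic pair moved apart.

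Promoter windows are shown for the catalytic pair, Ezh1 and Ezh2, whose balance shifted, and for Cbx7, the other subunit that rose. Each is the 250 bases before one transcript start of the gene in RefSeq (GRCm38.p6), read 5′ to 3′ on the gene's own strand, which is the minus strand in all 3 cases. That start is the outermost one for Ezh1, but it lies 240 bases inside the annotated gene for Ezh2 and 38497 bases inside it for Cbx7, so the Cbx7 window precedes an internal start. They lie at chr11:101226464-101226713 for Ezh1, chr6:47595031-47595280 for Ezh2 and chr15:79932647-79932896 for Cbx7, and capitals mark a match to a GATA motif.
Ezh1: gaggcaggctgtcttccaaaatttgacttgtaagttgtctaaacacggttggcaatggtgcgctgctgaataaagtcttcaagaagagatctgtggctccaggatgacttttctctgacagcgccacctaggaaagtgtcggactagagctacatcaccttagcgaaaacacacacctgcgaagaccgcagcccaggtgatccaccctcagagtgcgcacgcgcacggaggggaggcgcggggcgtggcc
Ezh2: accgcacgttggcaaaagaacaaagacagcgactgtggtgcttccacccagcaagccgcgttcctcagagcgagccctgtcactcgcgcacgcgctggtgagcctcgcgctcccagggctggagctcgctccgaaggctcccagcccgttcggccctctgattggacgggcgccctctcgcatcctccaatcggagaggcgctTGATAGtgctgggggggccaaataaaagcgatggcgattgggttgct
Cbx7: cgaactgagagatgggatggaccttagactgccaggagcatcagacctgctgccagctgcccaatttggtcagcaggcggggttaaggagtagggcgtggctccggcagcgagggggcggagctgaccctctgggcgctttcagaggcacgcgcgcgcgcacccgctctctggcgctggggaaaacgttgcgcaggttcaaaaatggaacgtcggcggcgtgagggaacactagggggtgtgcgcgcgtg
The search for GATA covered AGATAA along with a form ending in G, AGATAG, a form starting with T, TGATAA, and one with both changes, TGATAG. The search for E2F covered TTTCCCGC and, as a second form of that motif, TTTGGCGC, and both searches read both strands. No GATA or E2F match lay in the Ezh1 or Cbx7 window, and the Ezh2 window held 1 GATA match, TGATAG, 47 to 42 bases before the start. Promoter windows were found for 8 of the 9 genes, and among the other 5 of these the Suz12 window held 1 E2F match, TTTCCCGC, 219 to 212 bases before the start. Of 32841 RefSeq windows of the same length, 26.5% held a GATA match and 1.30% an E2F match. The Ezh1 window was 55.2% G and C with 14 CpG dinucleotides, against 63.6% with 23 in the Ezh2 window and 64.8% with 23 in the Cbx7 window. A match is a description of letters, not of a bound site.

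Over the 6 times, 8 of the 8 subunits tested changed at an adjusted p under 0.05 (limma moderated F test with Benjamini-Hochberg adjustment over all 12720 genes), where 74.3% of all genes did. The adjusted p ran from 7.95e-10 for Ezh1 to 0.0138 for Ring1. At 30 h against 0 h, 2 of the 8 were higher (Ezh1 and Cbx7) and 4 were lower (Ezh2, Eed, Suz12 and Bmi1), while Ring1 and Rnf2 did not pass. Across all genes 69.5% were called at that time, 36.6% higher and 33.0% lower, so the count of 6 of 8 is near the background. The median change of the 8 was -0.15 on the log2 scale against 0.09 for all genes tested. By size of change at 30 h, 144 of the 12720 genes rose more than Ezh1 and 362 more than Cbx7.

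**Figure D1:**
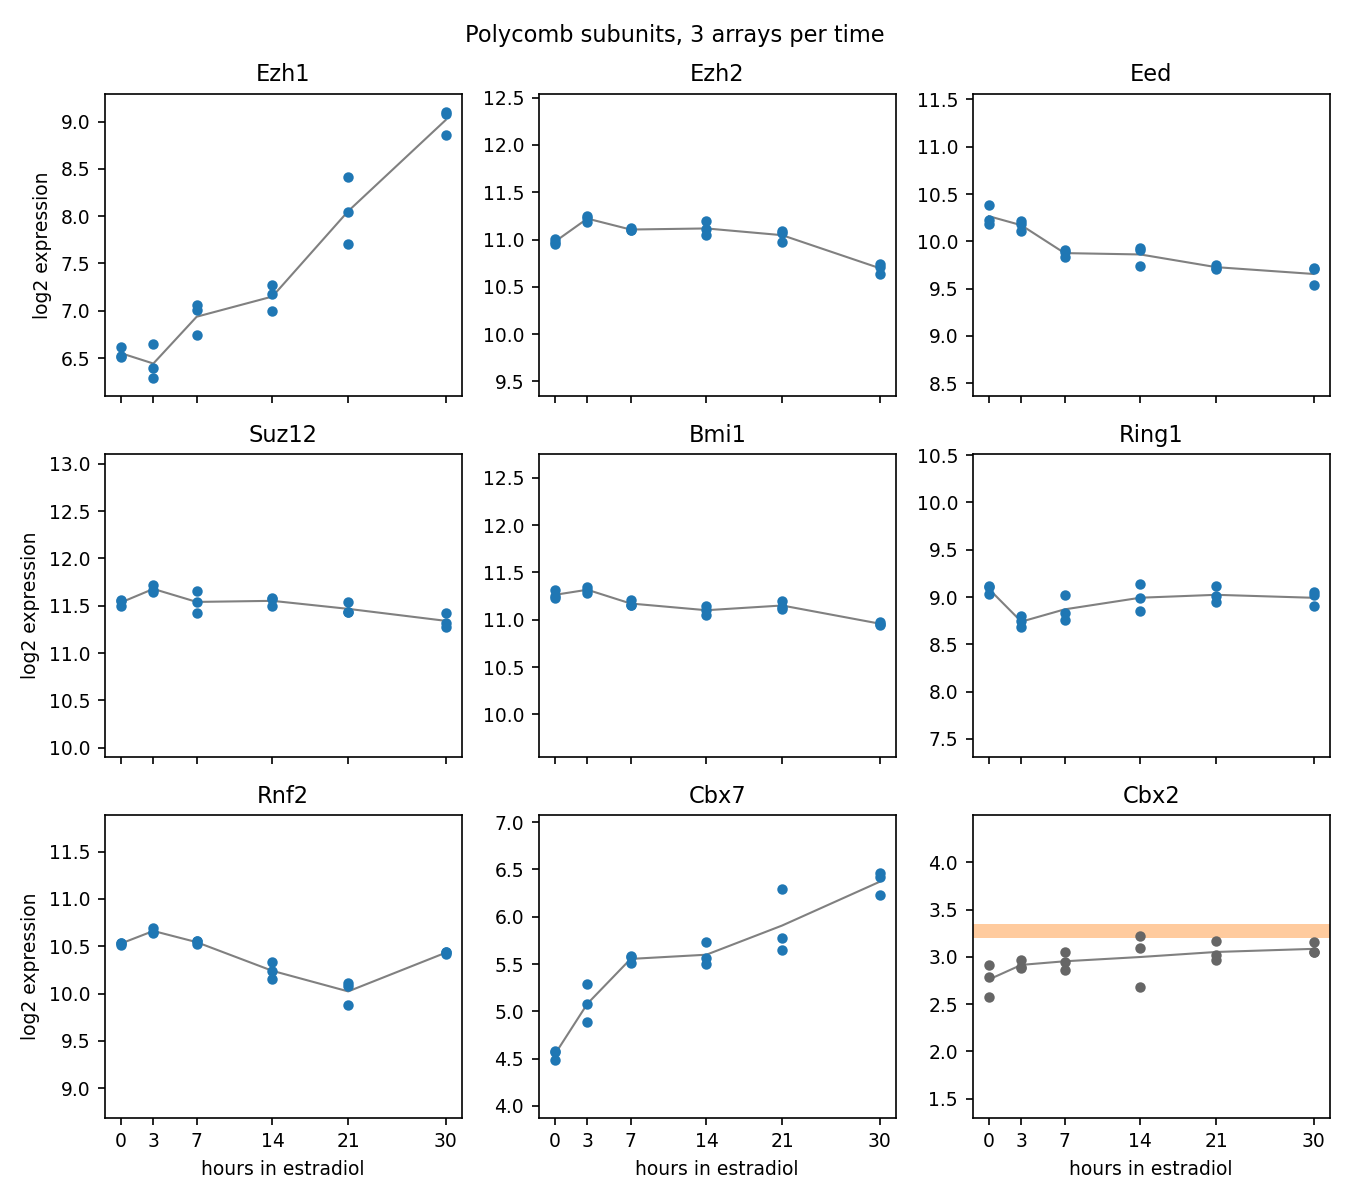
Log2 level of each of the 9 Polycomb genes (vertical axes, centred separately in each panel but with the same span) against hours in estradiol, with a point per array and a line through the mean of 3 arrays. Ezh1 and Cbx7 climb to 9.02 and 6.37 at 30 h, Rnf2 dips to 10.02 at 21 h, and Cbx2 stays near 3.

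Ezh1, the catalytic subunit typical of differentiated cells, rose 5.51-fold in 30 h. Its log2 level read 6.52, 6.62 and 6.51 on the 3 arrays at 0 h, 6.39, 6.65 and 6.29 at 3 h, and 7.06, 7.01 and 6.75 at 7 h. It then read 7.00, 7.17 and 7.28 at 14 h, 8.41, 8.04 and 7.70 at 21 h, and 9.10, 8.86 and 9.08 at 30 h. The arrays at 0 and 3 h overlapped, those at 7 and 14 h overlapped above them, and those at 21 h and then 30 h stood above all earlier ones. The mean was 6.55 ± 0.057 (SD, n = 3) at 0 h and 9.02 ± 0.13 (SD, n = 3) at 30 h, a log2 change of 2.46 (SE 0.15, limma adjusted p = 3.16e-10). Against the same 0 h arrays the change was 0.60 at 14 h (limma adjusted p = 0.00334) and 1.50 at 21 h (limma adjusted p = 2.25e-07), and the 0.39 at 7 h did not pass (limma adjusted p = 0.0589). The 7 h change did pass without 7 h replicate 3 (0.48, adjusted p = 0.0402), 21 h replicate 1 (0.0210) or 21 h replicate 3 (0.0229). In this probe set the larger steps came late. Between neighbouring times it was 0.49 from 3 to 7 h (limma adjusted p = 0.0334), 0.21 from 7 to 14 h (0.352, not called), 0.90 from 14 to 21 h (0.000221) and 0.96 from 21 to 30 h (6.91e-05). The 3 to 7 h step lost its call without 3 h replicate 1 (0.47, adjusted p = 0.0984), 3 h replicate 3 (0.42, 0.143), 7 h replicate 1 (0.43, 0.124) or 7 h replicate 2 (0.46, 0.108).

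All 4 Ezh1 probe sets were called higher at 30 h, by different amounts. In a fit across all probe sets, the other 3 changed by 1.51 (1418290_a_at, adjusted p = 7.91e-08), 1.85 (1429629_at, 9.70e-10) and 0.39 (1429630_at, 0.0402) on the log2 scale. The last of these was dim, above the 40th percentile of its array on 7 of 18 arrays. At 3 h only 1429629_at was called, 0.42 higher (adjusted p = 0.0198), where the brightest Ezh1 probe set changed by -0.11, and at 14 h it already stood 0.97 higher.

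Ezh2, the methyltransferase typical of dividing cells, rose slightly early and fell slightly late. Its single probe set, 1416544_at, read 10.97, 11.01 and 10.95 at 0 h, 11.23, 11.25 and 11.19 at 3 h, and 11.12, 11.10 and 11.10 at 7 h. It read 11.04, 11.11 and 11.20 at 14 h, 11.07, 11.09 and 10.98 at 21 h, and 10.64, 10.71 and 10.74 at 30 h. The 3 h arrays all stood above the 0 h arrays and the 30 h arrays all below every earlier one. Its log2 difference from 0 h was 0.24 at 3 h (SE 0.053, limma adjusted p = 0.00289), 0.13 at 7 h (0.0778, not called) and 0.14 at 14 h (0.0410). It was 0.07 at 21 h (limma adjusted p = 0.275, not called) and reached -0.28 at 30 h (SE 0.053, 0.000199). The late fall was 0.35 between 21 and 30 h (change -0.35, limma adjusted p = 6.29e-05), which is 1.27-fold. With the arrays scaled on the hybridisation controls (bacterial RNAs added to each sample before hybridisation), a scaling that moved the median of all genes upward by 0.20 at 30 h, Ezh2 changed by -0.08 (adjusted p = 0.742) at 30 h and by 0.34 (adjusted p = 0.415) at 3 h. Under that scaling the step from 21 to 30 h was -0.16 (adjusted p = 0.580) and lost its call. The 14 h call was lost without 14 h replicate 3, which lowered the change to 0.10 (adjusted p = 0.170), and without 9 other arrays left out one at a time (any of those at 0 and 3 h, 7 h replicates 1 and 2, and 14 h replicate 2), with adjusted p-values from 0.0521 to 0.102.

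The difference between Ezh1 and Ezh2 within each array, set to a mean of 0 at 0 h, does not depend on how arrays are scaled by a constant. Relative to that mean, the 3 arrays read -0.02, 0.04 and -0.02 at 0 h, -0.41, -0.18 and -0.47 at 3 h, and 0.37, 0.33 and 0.07 at 7 h. They read 0.38, 0.49 and 0.50 at 14 h, 1.77, 1.38 and 1.15 at 21 h, and 2.89, 2.57 and 2.77 at 30 h. At each of the 5 later times no array overlapped those of 0 h. The balance thus fell at 3 h by 0.35 (SE 0.093) and then stood higher by 0.26 at 7 h and 0.46 at 14 h. It reached 1.43 at 21 h (SE 0.18) and 2.74 at 30 h (SE 0.093), a 6.69-fold shift toward Ezh1. The exact two-sided permutation p was 0.1 in all 5 comparisons, which is the smallest that 3 arrays against 3 allow and is also 0.1 after Benjamini-Hochberg adjustment over the 5, so none could reach 0.05. With the other Ezh1 probe sets in place of the brightest, the 30 h value was 1.79, 2.13 and 0.67, and at 3 h 1429629_at gave 0.18, the opposite direction.

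**Figure D2:**
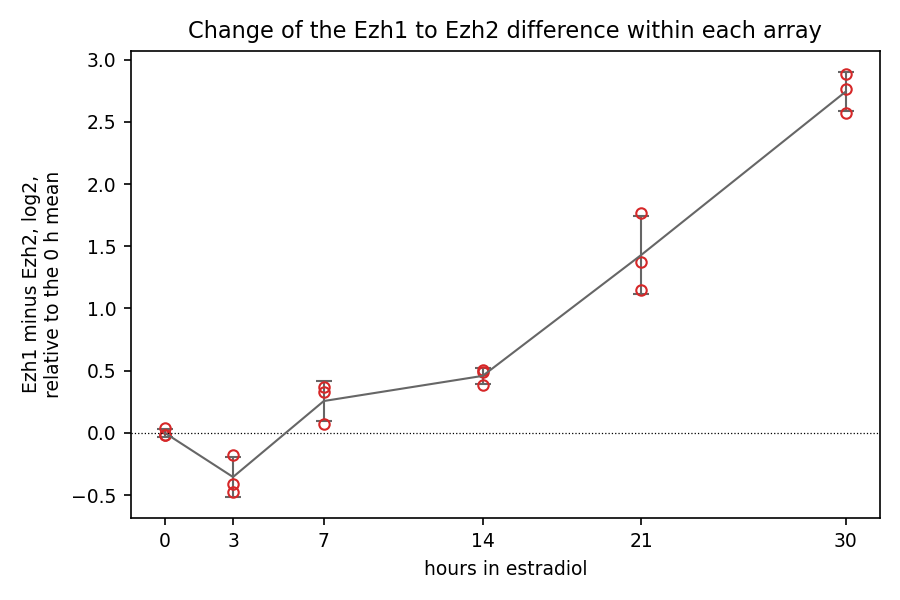
Change of the Ezh1 minus Ezh2 difference (log2, relative to the 0 h mean) against hours in estradiol, with one circle per array, a line through the means and bars of 1 SD over 3 arrays. The arrays lie between -0.47 and -0.18 at 3 h and between 2.57 and 2.89 at 30 h, away from those of 0 h.

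Eed, the PRC2 subunit that binds methylated histone H3, fell from 7 h on. It read 10.38, 10.23 and 10.18 at 0 h, 10.21, 10.19 and 10.11 at 3 h, 9.89, 9.90 and 9.84 at 7 h, 9.93, 9.74 and 9.91 at 14 h, 9.71, 9.75 and 9.72 at 21 h, and 9.72, 9.54 and 9.70 at 30 h. Every array from 7 h on lay below every array at 0 and 3 h. The step from 3 to 7 h was -0.29 (limma adjusted p = 0.00782), and the change from 0 h was -0.39 at 7 h (0.000397) and -0.40 at 14 h (0.000155). It went on to -0.54 at 21 h (limma adjusted p = 4.59e-06) and -0.61 at 30 h (SE 0.069, 7.75e-07), or 1.53-fold lower. No later step between neighbouring times was called. Under the control scaling 1 of these calls held, the 21 h change at -0.53 (adjusted p = 0.0267). The others were -0.44 at 7 h (adjusted p = 0.183), -0.17 at 14 h (0.513), -0.41 at 30 h (0.0664) and -0.44 for the step from 3 to 7 h (0.364). The second Eed probe set, 1453830_at, was too dim to test.

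Suz12, the scaffold of PRC2, gave probe sets that moved in different directions. The brightest, 1420021_s_at, read 11.50, 11.56 and 11.55 at 0 h and 11.42, 11.32 and 11.28 at 30 h, without overlap, and its means from 3 to 21 h lay between 11.47 and 11.68 with no change called. Its change at 30 h was -0.19 (limma adjusted p = 0.0123), and without 30 h replicate 3 it was -0.16 (adjusted p = 0.0563). In the fit across all probe sets, 1427253_s_at and 1452364_at fell by more, -0.60 (adjusted p = 0.000779) and -0.69 (0.000738), while 1449661_at rose by 0.17 (0.0357) and the changes of 1420022_s_at, -0.08, and 1420020_at, -0.05, did not pass. At 21 h the split was the same in direction, with 1427253_s_at at -0.50 (adjusted p = 0.00366), 1452364_at at -0.52 (0.00724) and 1449661_at at 0.24 (0.00613). Earlier, at 3 h, every Suz12 probe set was higher, by 0.12 to 0.32, and only 1449661_at was called (0.32, adjusted p = 0.00266). That probe set was also called higher at 7 h (0.22, adjusted p = 0.0225). A suffix _s_at marks probes that match more than one transcript. The control scaling gave 0.01 for the brightest probe set at 30 h (adjusted p = 0.970), so no single direction holds for Suz12.

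**Figure D3:**
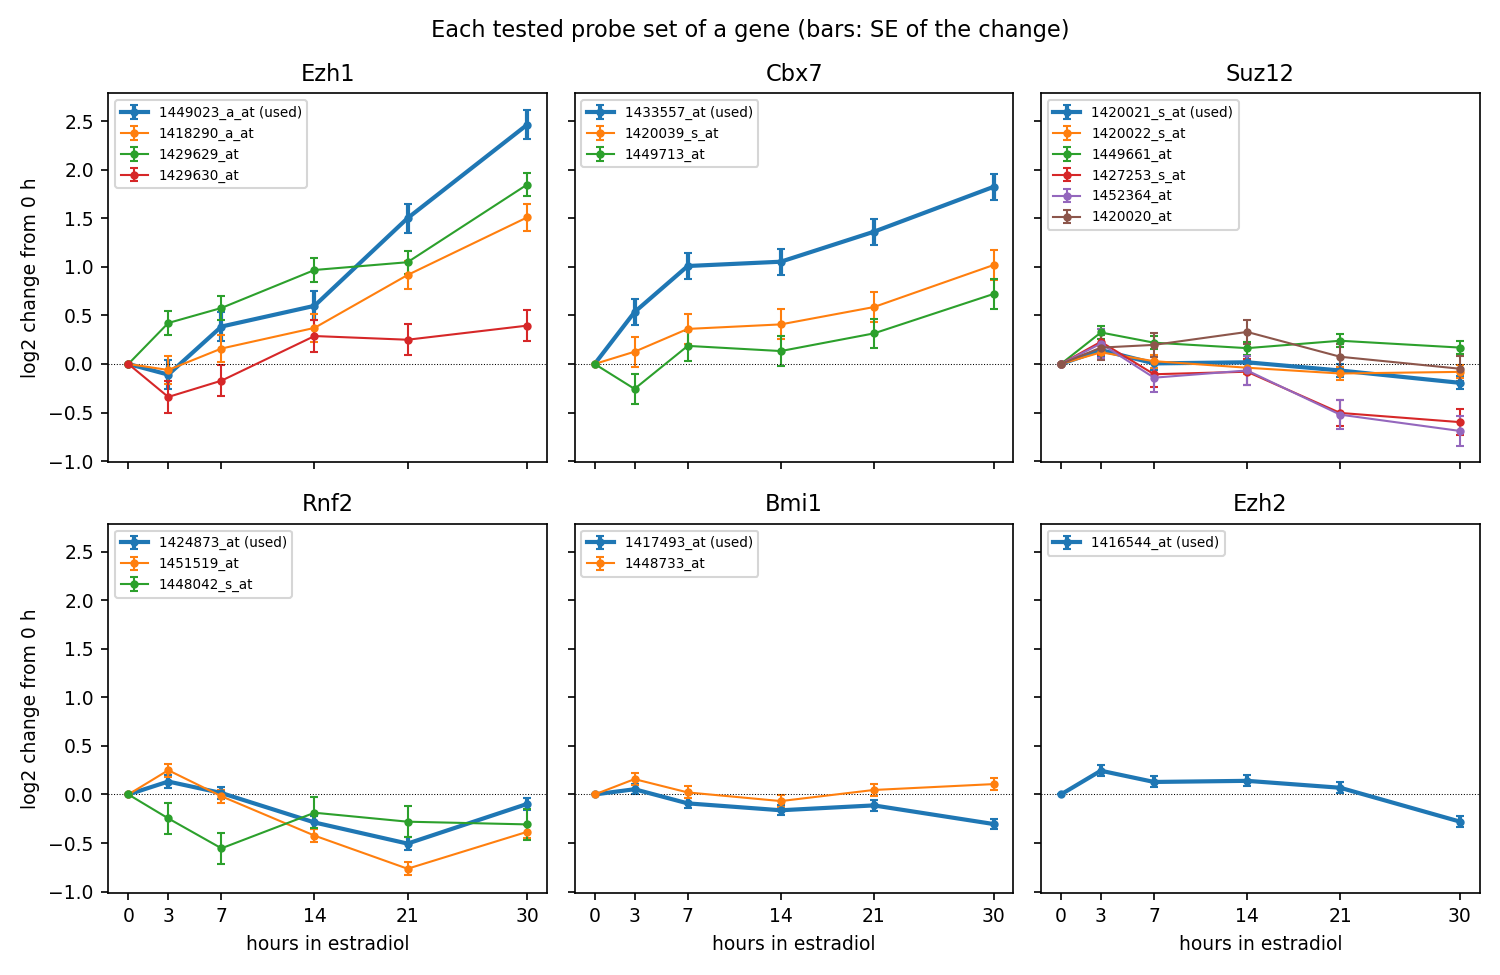
Log2 change from 0 h (vertical axes) of every probe set bright enough to test for 6 Polycomb genes, against hours in estradiol, with bars of 1 SE of the change and a thick line for the probe set used. The Ezh1 probe sets all end above 0, with 30 h changes from 0.39 to 2.46, while the Suz12 ones end between -0.69 and 0.17.

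In PRC1, Rnf2, the main ubiquitin ligase of the complex, fell in mid course and came back. Its level read 10.54, 10.53 and 10.52 at 0 h, 10.64, 10.65 and 10.69 at 3 h, 10.53, 10.55 and 10.55 at 7 h, 10.16, 10.24 and 10.33 at 14 h, 10.08, 10.11 and 9.88 at 21 h, and 10.44, 10.44 and 10.42 at 30 h. All arrays at 14 and 21 h lay below all others, and the 30 h arrays lay between them and the 0 h arrays. Against 0 h Rnf2 stood at -0.29 at 14 h (limma adjusted p = 0.00104), -0.51 at 21 h (SE 0.061, 2.39e-06), or 1.42-fold lower, and -0.10 at 30 h (0.168, not called). By steps it was -0.30 from 7 to 14 h (limma adjusted p = 0.00205), -0.22 from 14 to 21 h (0.0119) and 0.41 from 21 to 30 h (5.43e-05). The 14 to 21 h step was -0.17 (adjusted p = 0.0589) without 14 h replicate 3. A second bright probe set, 1451519_at, was -0.76 at 21 h (adjusted p = 8.61e-08), rose by 0.38 between 21 and 30 h (0.000366) and was still lower at 30 h, -0.38 (0.000117). It was also called higher at 3 h, 0.25 (adjusted p = 0.0162), where the brightest probe set, at 0.13 (0.127), was not. From 3 to 7 h it then fell, at -0.27 (adjusted p = 0.0176). Under the control scaling the 21 h fall, -0.49 (adjusted p = 0.0356), and the later rise, 0.60 (0.0195), kept their calls, and the 14 h change, -0.06 (0.833), did not. The steps from 7 to 14 h, -0.03 (adjusted p = 0.924), and from 14 to 21 h, -0.43 (0.133), lost theirs too.

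Ring1, the other ubiquitin ligase of PRC1, was called at 3 h alone, when it was lower. It read 9.11, 9.03 and 9.12 at 0 h, 8.74, 8.80 and 8.68 at 3 h, 9.02, 8.83 and 8.76 at 7 h and 9.05, 8.90 and 9.02 at 30 h, so that the 3 h arrays all lay below those of 0 h. Ring1 differed from 0 h by -0.35 at 3 h (SE 0.082, limma adjusted p = 0.00549), -0.22 at 7 h (0.0570, not called) and -0.09 at 30 h (SE 0.082, 0.319). At 14 and 21 h its means were 8.99 and 9.02, and neither change was called. The 7 h change passed without 7 h replicate 1 (-0.29, adjusted p = 0.0170), 14 h replicate 1 (0.0415) or 14 h replicate 3 (0.0416). Under the control scaling the 3 h change was -0.25 (adjusted p = 0.630).

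Bmi1, the partner that stimulates the ubiquitin ligase, fell by a small amount. It read 11.31, 11.22 and 11.25 at 0 h, 11.11, 11.15 and 11.05 at 14 h, 11.20, 11.14 and 11.11 at 21 h and 10.96, 10.95 and 10.97 at 30 h. The 30 h arrays lay below all earlier ones. Bmi1 differed from 0 h by -0.16 at 14 h (limma adjusted p = 0.0117), -0.11 at 21 h (0.0559, not called) and -0.30 at 30 h (SE 0.048, 3.51e-05), of which -0.19 came between 21 and 30 h (0.00455). The 21 h change passed without 21 h replicate 1 (-0.14, adjusted p = 0.0364). At 14 h the call was lost without 0 h replicate 1 (-0.14, adjusted p = 0.0560) or 14 h replicate 3 (-0.14, 0.0512). The other Bmi1 probe set, 1448733_at, changed by 0.11 at 30 h (adjusted p = 0.135), and the control scaling gave -0.10 (adjusted p = 0.662) for the brightest one.

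Cbx7, a reader of methylated histone H3 in PRC1, rose at every later time. It read 4.57, 4.49 and 4.59 at 0 h, 5.28, 5.07 and 4.88 at 3 h, 5.57, 5.58 and 5.51 at 7 h, 5.50, 5.56 and 5.73 at 14 h, 6.29, 5.78 and 5.65 at 21 h, and 6.42, 6.23 and 6.46 at 30 h. All arrays after 0 h stood above the 0 h arrays, the 7 and 14 h arrays overlapped, and 1 array at 21 h reached the 30 h range. Cbx7 was higher by 0.53 at 3 h (limma adjusted p = 0.00817), 1.01 at 7 h (2.91e-05) and 1.05 at 14 h (8.86e-06). The rise grew to 1.36 at 21 h (limma adjusted p = 2.49e-07) and 1.82 at 30 h (SE 0.13, 4.36e-09), which is 3.54-fold. The steps called were 0.47 from 3 to 7 h (limma adjusted p = 0.0259) and 0.46 from 21 to 30 h (0.0118). The first was lost without 3 h replicate 2 (0.47, adjusted p = 0.0700), 3 h replicate 3 (0.38, 0.135), 7 h replicate 1 (0.47, 0.0752) or 7 h replicate 2 (0.46, 0.0792). The second was lost without 21 h replicate 2 (0.40, adjusted p = 0.0529) or 21 h replicate 3 (0.34, 0.0647). The other Cbx7 probe sets rose by 1.02 (1420039_s_at, adjusted p = 2.04e-05) and 0.72 (1449713_at, 0.000499) at 30 h. At 3 h they read 0.13 (adjusted p = 0.607) and -0.26 (0.251), so the call at 3 h came from the brightest probe set only.

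Cbx2, the other chromodomain reader, was too dim to test. Its brighter probe set, 1434116_at, was above the 40th percentile on 0 of 18 arrays and the other, 1422059_at, on 1. The mean of the brighter one ran from 2.76 ± 0.17 (SD, n = 3) at 0 h to 3.08 ± 0.062 (SD, n = 3) at 30 h, where the 40th percentile of the arrays lay between 3.20 and 3.35. Such a value bounds the transcript as dim on this array and gives no change to test.

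Counted by time, between 2 and 6 of the 8 subunits were called against 0 h. All comparisons with 0 h share the same 3 arrays. At 3 h, 3 of 8 were called, Ezh2 and Cbx7 higher and Ring1 lower, where 25.9% of all genes were called, 11.2% higher and 14.7% lower. At 7 h it was 2 of 8, Cbx7 higher and Eed lower, against 31.6% of all genes, 15.3% higher and 16.3% lower. At 14 h 6 of 8 were called, with Ezh1, Ezh2 and Cbx7 higher and Eed, Bmi1 and Rnf2 lower, against 44.9%, 22.2% higher and 22.7% lower. At 21 h 4 of 8 were called, Ezh1 and Cbx7 higher and Eed and Rnf2 lower, against 59.9%, 31.4% higher and 28.6% lower.

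Between neighbouring times the count was highest at the last step. From 3 to 7 h, 3 of 8 were called, Ezh1 and Cbx7 higher and Eed lower, where 14.9% of all genes were, 9.80% higher and 5.14% lower. From 7 to 14 h it was 1 of 8, Rnf2 lower, against 22.3%, 11.5% higher and 10.8% lower. From 14 to 21 h it was 2 of 8, Ezh1 higher and Rnf2 lower, against 33.2%, 15.7% higher and 17.5% lower. From 21 to 30 h it was 5 of 8, with Ezh1, Rnf2 and Cbx7 higher and Ezh2 and Bmi1 lower, against 40.5%, 18% higher and 22.5% lower.

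Partners of the core subunits changed in both directions at 30 h, when 36.6% of all genes were called higher and 33.0% lower. Of 7 tested PRC2 partners, 2 rose and 4 fell, with a median of -0.14. Phf1, which docks PRC2 on chromatin, rose by 1.50 (limma adjusted p = 1.04e-09) and Jarid2, a cofactor of the complex, by 0.49 (7.10e-06). Rbbp7, a histone-binding subunit, changed by -1.07 (limma adjusted p = 3.35e-11) and Aebp2, a cofactor found with Jarid2, by -1.06 (5.88e-10). Each of these 4 kept its direction and its call under the control scaling, at 1.71, 0.70, -0.86 and -0.86. Under it 3 of the list rose and 2 fell, with a median of 0.06, where 4999 of all 12720 genes were called higher and 2585 lower.

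Among 7 tested partners of canonical PRC1, 1 rose and 3 fell, with a median of -0.28, beside 36.6% higher and 33.0% lower over all genes. Scml2, a Polycomb-associated protein, had the largest change of the list, from 7.36 ± 0.039 (SD, n = 3) at 0 h to 4.95 ± 0.21 (SD, n = 3) at 30 h, or -2.41 (limma adjusted p = 3.04e-12). Cbx6, a chromodomain paralogue of Cbx7, changed by -0.82 (limma adjusted p = 3.84e-05), against the rise of Cbx7. The Polyhomeotic subunits split, Phc2 at -0.60 (limma adjusted p = 1.21e-05) and Phc3 at 0.59 (2.62e-06). Under the control scaling Phc2, at -0.40 (adjusted p = 0.0687), lost its call and the other 3 kept theirs.

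Of 11 tested subunits of variant PRC1, which lacks CBX proteins, 3 rose and 7 fell, with a median of -0.52. Over all genes 36.6% were called higher and 33.0% lower. Pcgf3, a relative of Bmi1, rose by 1.39 (limma adjusted p = 3.83e-09), whereas its relative Pcgf6 changed by -1.14 (1.15e-09). L3mbtl2, which is found in the Pcgf6 complex, changed by -1.10 (limma adjusted p = 2.56e-09) and Yaf2, which binds the ubiquitin ligases, by -1.08 (8.53e-10). These 4 kept their calls under the control scaling, where 3 of the list rose and 4 fell with a median of -0.32. The same scaling called 4999 of all 12720 genes higher and 2585 lower.

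Among the enzymes that remove the marks, 5 of 8 tested subunits of the Polycomb deubiquitinase rose and 2 fell, with a median of 0.36. The shares over all genes were 36.6% higher and 33.0% lower. Asxl2 and Asxl1, which activate that enzyme, rose by 1.02 (limma adjusted p = 9.40e-08) and 0.80 (1.30e-05), while Foxk2, a DNA-binding partner, changed by -1.12 (8.88e-10) and Hcfc1, a transcriptional cofactor, by -0.59 (1.20e-05). Under the control scaling Hcfc1, at -0.39 (adjusted p = 0.0825), lost its call. Both demethylases of the Polycomb methyl mark that could be tested rose, Kdm6a by 1.01 (limma adjusted p = 2.83e-08) and Kdm6b by 0.43 (1.38e-06), and both calls held under the control scaling.

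Of 20 classical Polycomb target genes of the Hox clusters and the Ink4 locus with a probe set, 15 were too dim to test. Cdkn2a and Cdkn2b, named after their values were seen, were among the 15. Of all 18194 genes, 12720 were bright enough to test. Of the 5 target genes tested, Hoxa7 rose by 0.58 (limma adjusted p = 0.000466) to 5.87 ± 0.20 (SD, n = 3) and Hoxa5 by 0.50 (0.0378) to 4.13 ± 0.30 (SD, n = 3). Hoxb13 changed by -0.27 (limma adjusted p = 0.00357), and Hoxa9, at 0.24 (0.292), did not pass. In all, 2 of the 5 were called higher and 1 lower, beside 36.6% higher and 33.0% lower over all genes. Under the control scaling the change of Hoxb13 was -0.06 (adjusted p = 0.784).

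**Figure D4:**
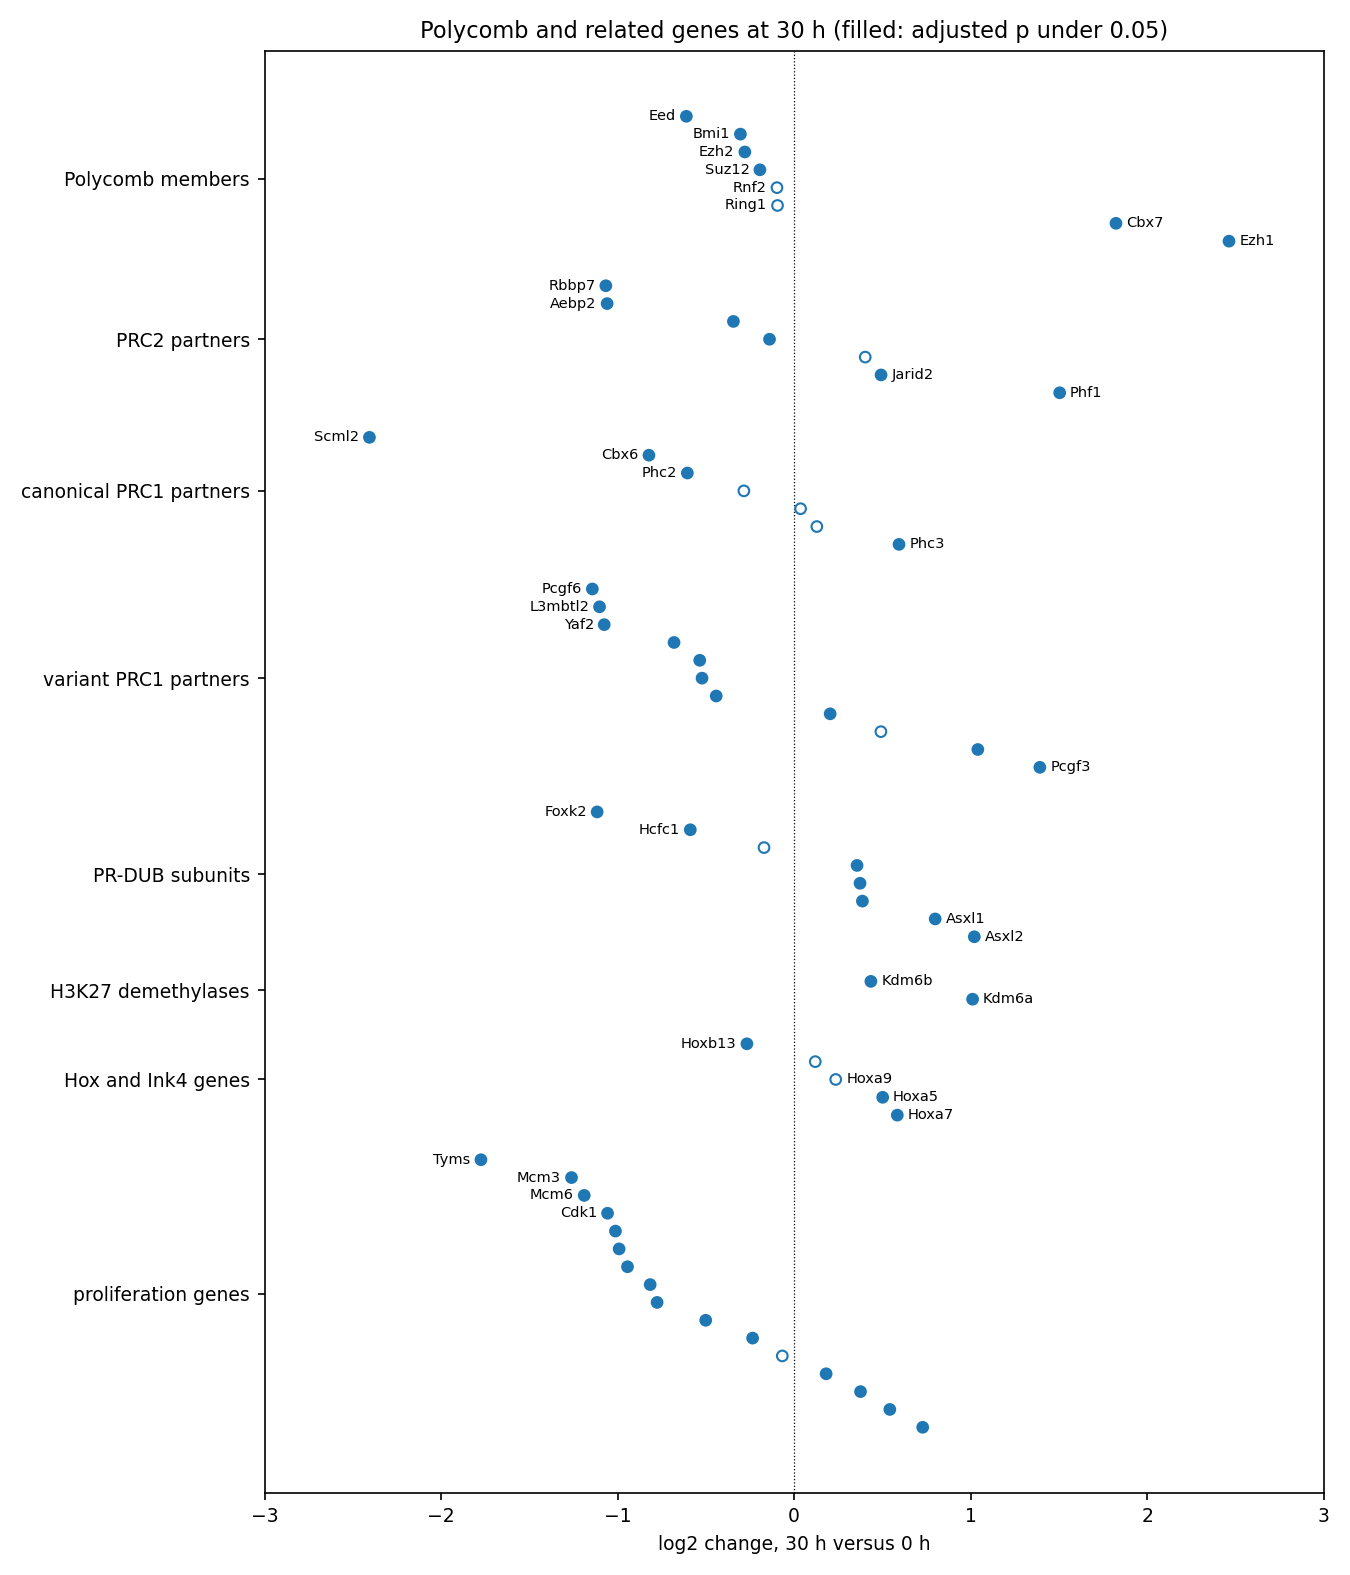
Log2 change at 30 h against 0 h (horizontal axis) of every tested gene in the Polycomb and related lists (rows), filled where the adjusted p was under 0.05, with the named genes labelled. Ezh1 at 2.46 and Cbx7 at 1.82 lie furthest to the right and Scml2 at -2.41 furthest to the left.

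Genes of DNA replication and cell division were called in both directions at earlier times, and all 16 listed fell at the step in which Ezh2 fell. Against 0 h, 4 of the 16 in that list rose and 1 fell at 3 h, and 4 rose and 2 fell at 7 h. Over all genes 11.2% were called higher and 14.7% lower at 3 h, and 15.3% and 16.3% at 7 h. From 7 to 14 h, 7 of the 16 rose and 0 fell, and against 0 h 7 rose and 0 fell at 14 h and 7 rose and 4 fell at 21 h. Over all genes 11.5% were called higher and 10.8% lower from 7 to 14 h. Against 0 h the shares were 22.2% higher and 22.7% lower at 14 h, and 31.4% and 28.6% at 21 h. From 14 to 21 h, 1 of the 16 rose and 4 fell, where 15.7% of all genes were called higher and 17.5% lower. From 21 to 30 h, 16 of 16 fell with a median of -0.78, beside the -0.35 of Ezh2, where 22.5% of all genes were called lower. Under the control scaling 9 of 16 passed, none of them higher, and the Ezh2 step, -0.16 (adjusted p = 0.580), did not. The same scaling called 753 of all 12720 genes lower at that step. At 30 h against 0 h, 4 rose and 11 fell with a median of -0.80, beside 36.6% higher and 33.0% lower over all genes. Tyms, which makes thymidylate, changed by -1.77 (limma adjusted p = 2.38e-10), the replication helicase subunits Mcm3 by -1.26 (6.78e-11) and Mcm6 by -1.19 (2.87e-11), and the mitotic kinase Cdk1 by -1.06 (4.10e-10). The part of this shift in the fall of Ezh2 was not tested.

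The genes most like each catalytic subunit were ranked by Pearson's r over the 18 arrays among 3235 genes whose means spanned at least 1 on the log2 scale. For Ezh1 they were Vps11 (r = 0.991), a vesicle tethering protein, Lrig2 (0.990), Smcr8 (0.989), Mfsd11 (0.989) and Araf (0.988), a kinase. For Ezh2 they were Fignl1 (r = 0.952), Ncapg2 (0.929), a condensin subunit, Rbl1 (0.928), a relative of the retinoblastoma protein, Mms22l (0.928) and Ccne2 (0.924), a cyclin. The arrays of one time share their treatment, so these values describe the shape of the time course and carry no p.

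Markers of the labelled lineage were detected. Of 10 tested erythroid markers, 7 rose and 0 fell at 30 h, with a median change of 0.51. The mean level of the list, over 11 genes of which 1 was too dim to test, went from 9.23 to 10.75. Under the control scaling its largest changes at 30 h were those of Alas2 (6.69) and Slc4a1 (6.29), named after their values were seen. Over all genes 36.6% were called higher and 33.0% lower at that time. Among markers of other lineages 2 of 5 rose and 2 fell (megakaryocyte), and 1 of 6 rose and 3 fell (mast cell and basophil). Of granulocyte and macrophage markers 3 of 5 rose and 1 fell, and of lymphoid markers 2 of 5 rose and 0 fell. These last lists were dim, with means going from 3.19 to 3.31 and from 3.43 to 3.58. The 40th percentile of the arrays lay between 3.20 and 3.35. The mean of the mast cell list, over 9 genes of which 3 were too dim to test, went from 4.07 to 3.07. The median change of its 6 tested genes was -0.55. Under the control scaling its largest changes were those of Cpa3 (-5.21) and Ms4a2 (-3.23), also named after their values were seen. The gap between 3′ and 5′ probe sets of Actb, a sign of RNA integrity, went from 1.89 at 0 h to 2.20 at 30 h, and that of Gapdh from 1.13 to 1.52. That of Tfrc went from 1.79 to 2.41. All of these gaps were highest at 21 and 30 h, when Ezh1 and Cbx7 were highest. Across the 21 h arrays the Actb gap was 2.36, 2.18 and 1.89 and the Gapdh gap 1.78, 1.52 and 1.24. Ezh1 (8.41, 8.04 and 7.70) and Cbx7 (6.29, 5.78 and 5.65) ran in the same order. At 30 h Ezh1, Cbx7 and the Actb and Gapdh gaps were lowest on replicate 2, and the Tfrc gap on replicate 1. At 14 h the Actb gap was highest on replicate 2 and Ezh1 on replicate 3. The levels of different lists are not comparable, since their probes differ. The part of these markers and gaps in the subunits' values was not tested.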

How the data were processed

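The deposited values are log2 expression values of 45101 probe sets on 18 arrays, with array medians between 4.04 and 4.09. The authors' summarisation, background correction and scaling (all not given in the sources used here) may affect small changes, and the labels describe Trizol extraction and biotin labelling of total RNA. GEO's platform annotation gave 34958 probe sets 1 gene, 932 several and 9211 none. Of those with 1 gene, 34754 were found in RefSeq, which changed 0 symbols. The 18194 genes were each read from their highest-mean probe set, and 12720 passed a filter (3 or more arrays with a value over that array's 40th percentile). All 6 times were fitted together in limma 3.58.1 (R 4.3.3), without a block, with 12 residual and 3.12 prior degrees of freedom, and p-values were adjusted by Benjamini-Hochberg over all genes. The threshold for a call was an adjusted p of 0.05. The script was tested on simulated data. Named genes are the 9 members, up to 4 of each partner list with the greatest change at 30 h, and the 5 most like Ezh1 or Ezh2.

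Replicate numbers were checked for pairing: deviations from the time means of arrays sharing a number had a mean correlation of 0.01 over 45 pairs, 7 of them over 0.1. Arrays with different numbers had a mean of -0.006 over 90 pairs, 12 of them over 0.1, so no pairing by number was seen. No pair of arrays was identical, and arrays of one time correlated at 0.995 or more. Alternatives were other scalings (quantile, equal medians, hybridisation controls), other filters, other probe sets or their mean, other variance models, fitting only the arrays compared, the replicate block, and leaving out each array. The number of arrays limits the precision. The members, lists and tests were chosen with earlier results of these data known. Figures were drawn with matplotlib 3.10.9 under python 3.11.15.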

Additional observations from a re-analysis of the deposited data

How the results depend on the processing

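Of 2205 changes of single subunits recomputed, 2066 kept their side of the threshold, 79 lost a call, 45 gained a call and 15 turned. Called changes among the 2066 kept their direction, while changes called in neither fit were counted there whatever their direction. Those that turned were called in the main fit, in the alternative or in both. The rise of Ezh1 and Cbx7 at 21 and 30 h kept its call under every alternative that kept the probe set. Scaling on the hybridisation controls, whose own spread adds to each standard error (0.19 to 0.20 for the subunits), cut the subunits called to 1 at 3 and at 7 h and to 2 at 14 and at 30 h, to 0, 0, 1 and 3 at the 4 successive steps from 3 h on, and to 4 over all times. It made Ezh2 -0.076 at 30 h, turned Bmi1 at 14 h to 0.067 and Suz12 at 30 h to 0.0092, and moved the median of all genes by 0.10, -0.05, 0.23, 0.01 and 0.20 at the 5 times. Genes called under it fell from 3291 to 748 at 3 h, 4021 to 1201 at 7 h and 5716 to 3603 at 14 h. They fell from 7624 to 4729 at 21 h, 8846 to 7584 at 30 h and 9451 to 7699 over all times. At the 4 steps they fell from 1901 to 300, 2841 to 1473, 4223 to 1778 and 5150 to 2433. The higher share of calls went from 43.1% to 61.9% at 3 h, 49.5% to 77.5% at 14 h and 52.6% to 65.9% at 30 h, and at the 4 steps from 65.6% to 42.3%, 51.7% to 89.3%, 47.2% to 6.86% and 44.4% to 69.1%. Counting a gene when any probe set was called gave 6 subunits at 3 h, 5 at 7 h and 2 from 7 to 14 h. The 60th-percentile filter and the trended, robust variance each gave 5 at 7 h. Averaging the probe sets of each gene gave 1 from 3 to 7 h and 3 from 21 to 30 h and turned Eed at 14 h to 0.035. Fitting only the arrays compared gave 1 from 14 to 21 h and 3 from 21 to 30 h, and 2466 genes from 14 to 21 h. Leaving out one array gave 1 to 4 from 3 to 7 h, with 1 without 3 h replicate 3, 7 h replicate 1 or 7 h replicate 2, and 1 to 3 from 14 to 21 h, with 1 without 14 h replicate 3 and 3 without 21 h replicate 3, where Cbx7 was called (0.44, adjusted p = 0.0237). Single probe sets turned Ezh1 at 3 h (0.42) and from 14 to 21 h (-0.038), Cbx7 at 3 h (-0.26), Rnf2 at 7 h (-0.55), from 7 to 14 h (0.37) and from 21 to 30 h (-0.028), Suz12 at 21 h (0.24) and 30 h (0.17, the values also without _x_at and _s_at probe sets), and Bmi1 at 30 h (0.11) and from 21 to 30 h (0.060). The balance with 1418290_a_at, 1429629_at and 1429630_at was 0.030, 0.45 and -0.30 at 7 h, 0.23, 0.83 and 0.15 at 14 h, 0.85, 0.98 and 0.18 at 21 h, and 1.79, 2.13 and 0.67 at 30 h. At 3 h it was 0.18 with 1429629_at and -0.58 with 1429630_at. With averaged probe sets it was 0.11 at 7 h, 0.86 at 21 h and 1.83 at 30 h, and with quantile normalization 0.54 at 14 h. The replicate block took away 1 call, that of Ezh2 at 14 h (0.14, adjusted p = 0.0555), and no other of a subunit. Why these values moved was not tested. The number of arrays and dim probes, such as those of Cbx2, limit what could be seen.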
